A study of Mus musculus with 2 samples.

Results

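The genes described here are 34 interferon-stimulated genes of the mouse, chosen by name as a classical set of genes that interferons raise and measured through the splice junctions of their transcripts. Of the 34, 30 had at least 1 junction that could be given the gene's name, among 11729 such genes in the 2 libraries together. The libraries came from CD4+ T cells, lymphocytes that help other immune cells, taken from male C57BL/6JJcl mice. Each was made from total RNA of cells purified by magnetic enrichment from 4 pooled spleens. The stimulated cells were kept for 4 h on plates coated with 2 ug/ml anti-CD3e, which engages the T cell receptor complex, and 2 ug/ml anti-CD28, which engages a costimulatory receptor. The mock cells were handled in the same way without either antibody. The labels name no added interferon in either group. Each group is 1 library of pooled animals, so the spread between animals or cultures is unknown, no test was made, and every interval below covers counting error only.

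Interferons are secreted proteins that warn cells of infection. Type I interferons, such as the interferon alpha family, signal through the receptor chains Ifnar1 and Ifnar2 to a complex of Stat factors with Irf9 that binds a promoter element called ISRE. Interferon gamma, which T cells and natural killer cells secrete, signals through Ifngr1 and Ifngr2 to pairs of Stat proteins that bind an element called GAS, and it raises Irf1, a factor that binds ISRE-like sites. The targets overlap. Guanylate-binding proteins (Gbp), immunity-related GTPases (Irgm1 and Igtp) and Cxcl9 respond above all to interferon gamma, whereas genes such as Isg15, Ifit1, Mx1 and the Oas family are classical type I targets. The 34 genes were divided accordingly into 7 led by interferon gamma (Gbp2, Gbp3, Gbp4, Gbp5, Irgm1, Igtp and Cxcl9) and 27 led by type I interferon. Cxcl10, which responds to both kinds, was placed with the latter.

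A junction is seen as a read that crosses from one exon into the next. The exon sequences that meet at a well-read junction of 6 of these genes are shown, because these are the letters that a counted read had to cross. The position is that of the intron in mm9. The letters come from a GENCODE M21 transcript of the same gene, at an intron of the same length within its coding part. The last 20 bases of the upstream exon are in lower case and the first 20 bases of the downstream exon in capitals, 5′ to 3′.
Gbp2, intron at chr3:142293723-142294956, plus strand, exons 6 and 7: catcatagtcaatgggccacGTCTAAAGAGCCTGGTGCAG
Gbp4, intron at chr5:105547519-105548396, minus strand, exons 10 and 11: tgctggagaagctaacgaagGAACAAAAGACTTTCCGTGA
Cxcl9, intron at chr5:92752933-92754089, minus strand, exons 3 and 4: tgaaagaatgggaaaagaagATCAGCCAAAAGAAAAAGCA
Cxcl10, intron at chr5:92776921-92777114, minus strand, exons 2 and 3: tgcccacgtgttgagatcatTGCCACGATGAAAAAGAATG
Ifih1, intron at chr2:62443758-62444237, minus strand, exons 10 and 11: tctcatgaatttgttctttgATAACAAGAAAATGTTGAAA
Ddx58, intron at chr4:40171090-40172072, minus strand, exons 7 and 8: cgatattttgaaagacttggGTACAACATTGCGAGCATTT

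Promoter sequence is shown for 3 interferon gamma led genes, for Cxcl10 and for Isg15, the 250 bases before the RefSeq start site in GRCm38.p6, read 5′ to 3′ on the gene's strand. Capitals mark matches to a short ISRE core, GAAANNGAAA, or a short GAS core, TTCNNNGAA, each searched on both strands with overlapping matches kept.
Gbp2, chr3:142620413-142620662, plus strand: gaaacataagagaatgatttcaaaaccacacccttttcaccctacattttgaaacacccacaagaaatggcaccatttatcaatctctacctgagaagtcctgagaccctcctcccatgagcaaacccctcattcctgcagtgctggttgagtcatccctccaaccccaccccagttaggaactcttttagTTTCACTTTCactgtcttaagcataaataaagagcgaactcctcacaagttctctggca
Irgm1, chr11:48871421-48871670, minus strand: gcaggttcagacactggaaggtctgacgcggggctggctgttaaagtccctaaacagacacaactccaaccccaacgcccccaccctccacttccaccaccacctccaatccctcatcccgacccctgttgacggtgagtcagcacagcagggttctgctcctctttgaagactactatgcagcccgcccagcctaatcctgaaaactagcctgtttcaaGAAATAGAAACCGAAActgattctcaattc
Igtp, chr11:58199306-58199555, plus strand: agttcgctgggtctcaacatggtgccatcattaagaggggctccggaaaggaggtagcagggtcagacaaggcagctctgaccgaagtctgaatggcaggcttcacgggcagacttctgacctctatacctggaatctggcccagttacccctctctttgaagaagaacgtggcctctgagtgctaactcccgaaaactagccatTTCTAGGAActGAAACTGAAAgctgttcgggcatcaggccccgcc
Cxcl10, chr5:92348890-92349139, minus strand: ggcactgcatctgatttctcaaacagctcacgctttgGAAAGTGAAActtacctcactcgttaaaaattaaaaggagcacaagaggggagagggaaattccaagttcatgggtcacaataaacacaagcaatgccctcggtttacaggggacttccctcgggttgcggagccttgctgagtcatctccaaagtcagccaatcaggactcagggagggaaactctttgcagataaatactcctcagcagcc
Isg15, chr4:156200819-156201068, minus strand: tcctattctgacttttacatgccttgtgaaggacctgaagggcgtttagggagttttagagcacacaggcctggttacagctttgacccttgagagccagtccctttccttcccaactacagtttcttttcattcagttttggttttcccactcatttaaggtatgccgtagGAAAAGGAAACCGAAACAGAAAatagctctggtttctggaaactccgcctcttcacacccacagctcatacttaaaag

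Gbp2 had 1 ISRE core, from -59 to -50, counted back from the start site. Irgm1 had a pair of overlapping ISRE cores from -30 to -15. Igtp had a GAS core from -45 to -37 followed by an ISRE core from -34 to -25. Cxcl10 had 1 ISRE core from -213 to -204, and Isg15 had 3 overlapping ISRE cores between -78 and -57. RefSeq windows were matched for 24 of the 34 genes. These 24 genes have 29 windows, and a gene counted when any of its windows held a match. An ISRE core was found for 14 of the 24 genes, and a GAS core for 6. Of all 32851 single mouse windows of this length, 2.98% held an ISRE core and 7.02% a GAS core. The units thus differ, genes on 1 side and single windows on the other. Among interferon gamma led genes, 5 of 6 with a window had an ISRE core and 2 had a GAS core, against 9 and 4 of 18 type I led genes. No match to either core was found in the windows of Oasl1, Oasl2, Ddx58, Ifih1, Xaf1, Ifi35, Ifi44 and Cxcl9. Mx1, Mx2, Oas2, Usp18, Dhx58, Gbp4, Rtp4, Parp9, Parp14 and Zbp1 had no window in the table. A match is a description of the letters, and binding was not measured here.

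The mock library held 1147232 reads over 97850 junctions and the stimulated library 1341197 reads over 97395 junctions. A gene's level is its RPM, the sum of its named junction reads for each 1000000 junction reads of the library. A gene with at least 20 reads in both libraries together counted as measured. It was called higher or lower when the stimulated to mock ratio of levels reached 2-fold and the exact (Clopper-Pearson) 95% interval of that ratio excluded 1. A library with 0 reads was set to 3 reads in the ratio, which is 2.61 RPM in the mock and 2.24 RPM in the stimulated library. All 11 CD4 T cell markers listed were measured, with 7848 RPM in all in the mock and 6946 RPM in the stimulated library. CD8 T cell markers had 18 and 6 reads, B cell markers 188 and 160, natural killer cell markers 55 and 67, neutrophil markers 52 and 67 and erythroid markers 164 and 203. In bulk RNA of this kind, fewer cells of a type and less RNA per cell cannot be told apart.

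Interferon gamma led genes were higher in the stimulated library in 5 of 7 cases and lower in none. Cxcl9 was 13.1-fold higher with its 0 mock reads set to 3, Gbp2 5.67-fold, Gbp4 2.69-fold, Gbp5 2.64-fold and Irgm1 2.35-fold. Type I led genes divided: of 11 measured, Cxcl10, Ifih1, Isg20 and Ifi35 were higher, Ddx58 and Xaf1 were lower, and 5 were neither. The best known type I targets, among them Isg15, the Ifit genes, the Oas genes, Mx1, Mx2 and Rsad2, had at most 17 reads each in both libraries together. Isg15, Ifit1 and Ifit3 have 1 annotated intron each and Mx1 has 26, so summed junction reads do not compare expression between these genes. Of the 34 genes, 18 were measured, 12 had a named junction but fewer reads than the minimum, and 4 had none. Over the 18 measured genes, 9 were higher, where 1281 of all 7389 measured genes (17.3%) were, and 2 were lower, where 1848 (25.0%) were. Their median log2 ratio was 1.0, beside -0.20 over all measured genes. With trimmed mean of M values scaling, which sets the zero point at a log2 ratio of -0.23, 12 of the 18 were higher and 0 lower, and over all measured genes 1604 were higher and 1448 lower. The genes that passed the minimum include some that passed it through 1 library alone, such as Cxcl9, so these counts describe the measured genes and not the 34.

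**Figure D1:**
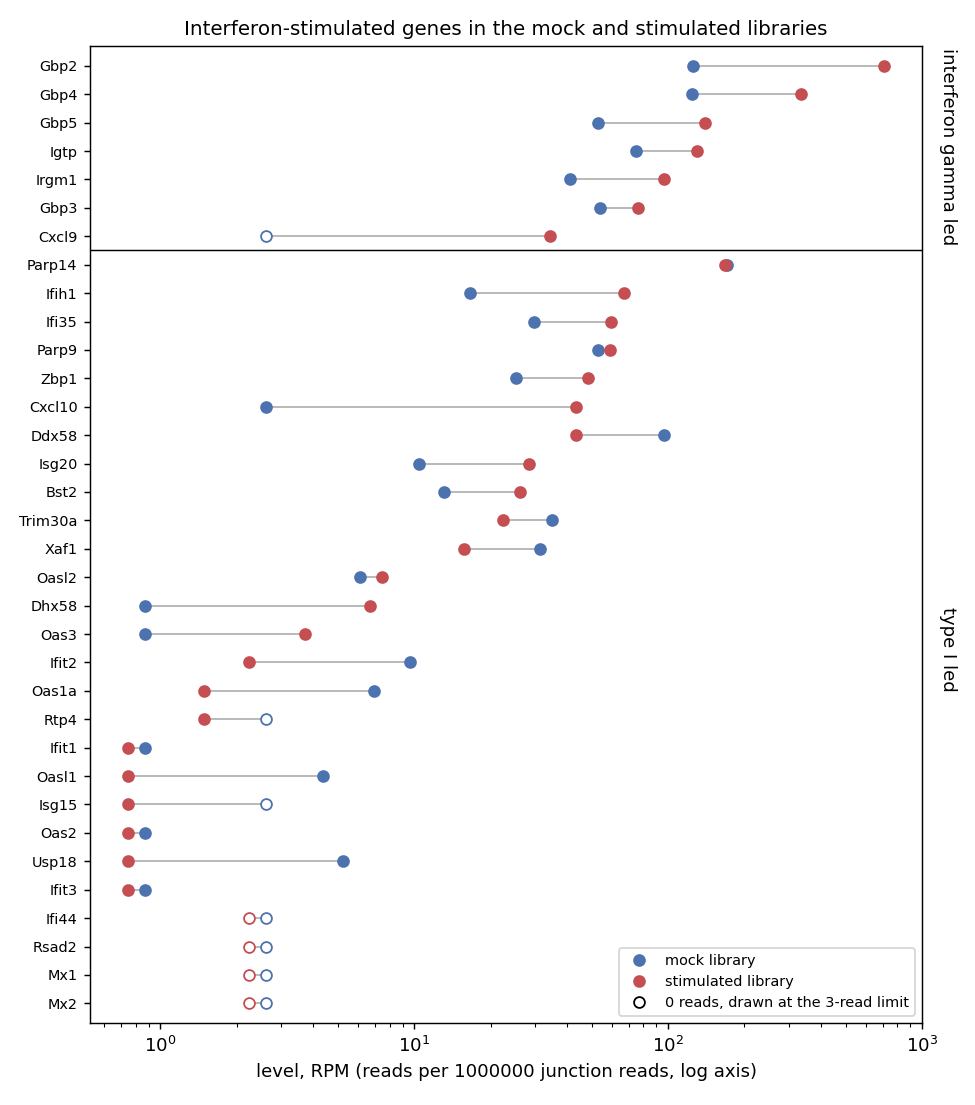
Level of each of the 34 genes in the mock library (blue) and the stimulated library (red), in RPM on a log axis, with interferon gamma led genes in the upper panel and type I led genes in the lower one, each ordered by stimulated level. Open circles are libraries with 0 reads, drawn at the 3-read limit of 2.61 or 2.24 RPM; the red point lies to the right of the blue one for all 7 interferon gamma led genes.

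The guanylate-binding proteins are large GTPases that coat vacuoles and bacteria in infected cells. Gbp2 had 144 mock and 954 stimulated reads, which is 126 and 711 RPM. It was 5.67-fold higher in the stimulated library (95% interval 4.75 to 6.80), and all 10 of its named junctions were higher there, by 3.03 to 10.8 times. These lie at chr3:142283773-142300346 on the plus strand, in mm9 as for all gene positions that follow, and no single junction carried more than 15.1% of the reads. At the junction whose letters are shown above, 24 mock reads stood against 142 stimulated reads.

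Gbp4 (chr5:105547519-105568498, minus strand) had 143 and 449 reads, or 125 and 335 RPM, and was 2.69-fold higher (2.22 to 3.27). Of its 15 named junctions 13 had the higher level in the stimulated library, and the last, shown above, had 48 and 132 reads. Gbp5, which also takes part in inflammasome assembly, had 61 and 188 reads, or 53.2 and 140 RPM, and was 2.64-fold higher (1.97 to 3.58), with all 10 junctions on the higher side. Gbp3 had 62 and 102 reads, or 54.0 and 76.1 RPM, a ratio of 1.41 (1.02 to 1.96) that did not reach 2-fold, with 7 of 10 junctions on the higher side. Gbp3 and Gbp5 lie beside Gbp2 on chromosome 3, at chr3:142223655-142235437 and chr3:142159960-142184003. The 4 genes together had 410 and 1693 reads, a summed ratio of 3.53 (3.17 to 3.94). Gbp genes resemble each other in sequence, and reads that the authors' aligner placed at the wrong copy could move single values, so the division between them is uncertain.

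**Figure D2:**
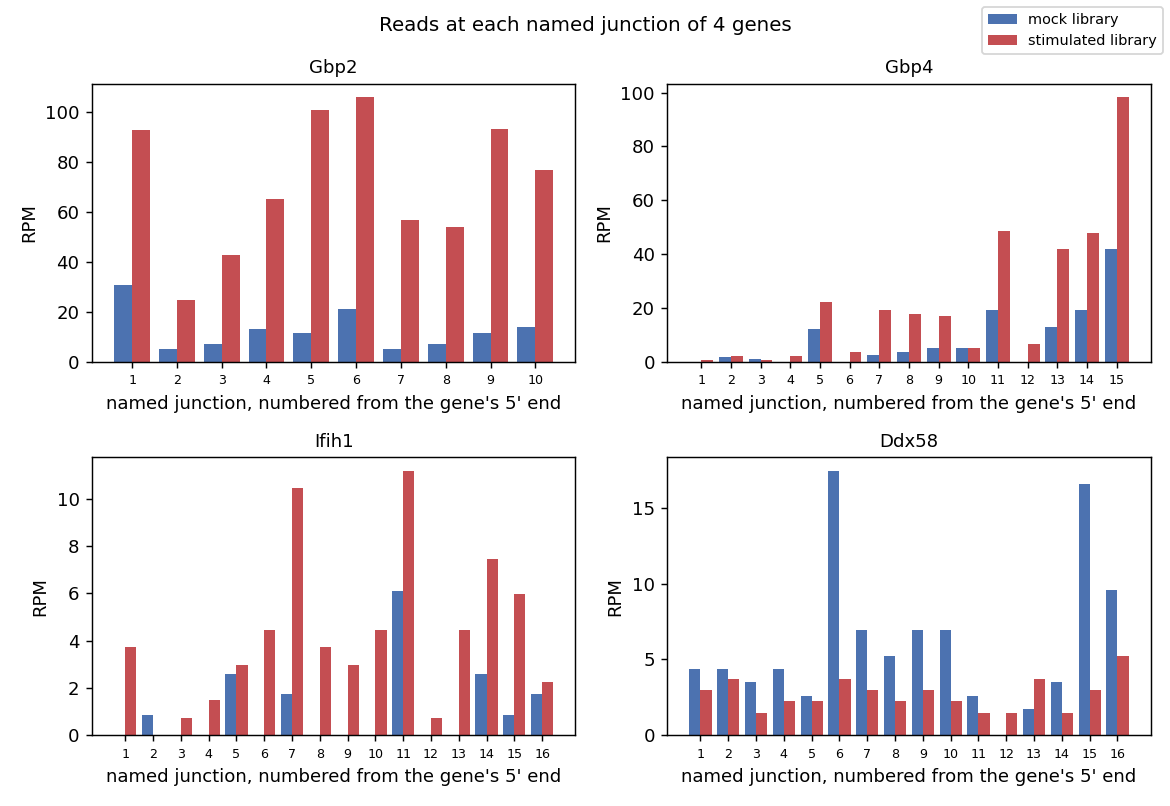
RPM at each named junction of Gbp2, Gbp4, Ifih1 and Ddx58, numbered from the 5′ end of the gene, in the mock (blue) and stimulated (red) libraries; each panel has its own axis from 0. The red bar is the taller one at all 10 junctions of Gbp2, 13 of 15 of Gbp4 and 15 of 16 of Ifih1, and the blue bar at 14 of 16 of Ddx58.

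The immunity-related GTPases act beside the guanylate-binding proteins on membranes around intracellular parasites. Irgm1, a regulator of the family that is also linked to T cell survival, had 47 mock and 129 stimulated reads, or 41.0 and 96.2 RPM. It was 2.35-fold higher (1.67 to 3.35), and the level of each of its 3 named junctions (chr11:48680506-48684595, minus strand) was above the mock level, by 1.03 to 2.81 times. Without its most-read junction the log2 ratio of Irgm1 was 0.98 in place of 1.23, and it was no longer called. Igtp, an effector member, had 86 and 175 reads, or 75.0 and 130 RPM, a ratio of 1.74 (1.34 to 2.28) that stayed under 2-fold. It rests on 2 junctions (chr11:58013282-58019545, plus strand). The first had 60 and 144 reads, a ratio of 2.05, and without this junction the log2 ratio of Igtp was 0.03 where it was 0.80 with both.

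Per named junction, used as a rough scale for genes with different numbers of introns, Igtp stood highest among the 34 in the mock library, at 37.5 RPM per junction. Irgm1 followed at 13.7, Gbp2 at 12.6 and Parp14 at 10.6. In the stimulated library Gbp2 was at 71.1, Igtp at 65.2, Irgm1 at 32.1 and Gbp4 at 22.3 RPM per junction. Most interferon gamma led genes were thus read well in the mock library too, and Cxcl9 was the exception.

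Cxcl9 and Cxcl10 encode chemokines that draw T cells bearing the receptor Cxcr3, and many cells of the spleen can make them. Cxcl9 (chr5:92752933-92756988, minus strand) had 0 mock and 46 stimulated reads, 34.3 RPM in the latter. This is 13.1-fold higher with the 0 mock reads set to 3, and the lower limit of the exact 95% interval is 10.2. All 3 named junctions were read in the stimulated library, with 7, 17 and 22 reads from the 5′ end. Its neighbour Cxcl10 (chr5:92776412-92777779, minus strand) had 3 and 58 reads, or 2.61 and 43.2 RPM, and was 16.5-fold higher (5.39 to 82.5). Its 3 junctions had 1, 2 and 0 mock reads and 15, 21 and 22 stimulated reads. Both chemokine genes were at or near 0 in the mock library and were read at every named junction in the stimulated one.

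Macrophages and dendritic cells are common sources of both chemokines, so their markers are given beside them. Of 13 macrophage and monocyte markers 9 had a named junction, with 406 mock and 365 stimulated reads in all, or 354 and 272 RPM. Adgre1 had 3 and 2 reads, Csf1r 6 and 7, Cd68 10 and 11, and Lyz2 15 and 0, while Ctss had 297 and 240 and Ly6c2 69 and 84, and Fcgr1, Itgam and Mpeg1 were among those with none. Cybb, the catalytic chain of the phagocyte oxidase, had 5 and 19 reads and was 3.25-fold higher, the only one of 4 measured markers of this list that was called. Dendritic cell markers had 62 and 66 reads in all, with Batf3, Xcr1, Clec9a and Siglech at 0, and 15 and 35 of these reads were those of Bst2, one of the 34 genes. Without Ctss, which held most of the reads, the macrophage and monocyte markers had 109 and 125 reads, or 95 and 93.2 RPM. Of these reads 69 and 84 were those of Ly6c2, so this sum too rests mostly on 1 gene. Which cells gave the chemokine reads was not tested.

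The type I led genes that sense foreign nucleic acid did not move together. Ifih1, which encodes MDA5, a receptor of long double-stranded RNA, had 19 mock and 90 stimulated reads, or 16.6 and 67.1 RPM. It was 4.05-fold higher (2.45 to 7.04), and 15 of its 16 named junctions (chr2:62436146-62483534, minus strand) had the higher level in the stimulated library. Its most-read junction alone, whose letters are shown above, had 7 and 15 reads, which gives a log2 ratio of 0.87 in place of 2.02 and no call. Ddx58, which encodes RIG-I, the related receptor of short RNA ends, went the other way. It had 111 mock and 58 stimulated reads, or 96.8 and 43.2 RPM, and was 2.24-fold lower (1.61 to 3.13). Of its 16 named junctions (chr4:40153140-40186623, minus strand) 14 had the lower level in the stimulated library. This held for all 7 with at least 10 reads, at 0.180 to 0.855 of the mock level, and the junction shown above had 20 and 5 reads. Scaled by the median of ratios over genes, the log2 ratio of Ddx58 was -0.94 in place of -1.16 and it was no longer called.

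Dhx58, which encodes LGP2, the third receptor of the family, had 1 and 9 reads and was under the minimum. Zbp1, a sensor of Z-form nucleic acid that can start cell death, had 29 and 65 reads, or 25.3 and 48.5 RPM, a ratio of 1.92 (1.22 to 3.08) that did not reach 2-fold. The 4 sensor genes together had 160 and 222 reads, a summed ratio of 1.19 (0.964 to 1.46). The sum hides the contrast between Ifih1 and Ddx58, whose intervals lie on opposite sides of 1.

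Type I led genes with a direct antiviral or antimicrobial product were mostly read thinly. Isg20, an exonuclease that degrades RNA, had 12 and 38 reads, or 10.5 and 28.3 RPM, and was 2.71-fold higher (1.39 to 5.69). Its reads lie in 3 junctions (chr7:86058929-86064931, plus strand), with 10 and 22 reads in the most-read one and 2 and 15 in the 3′ one. Without the most-read junction the log2 ratio was 2.77 in place of 1.44, and only 2 mock reads were left. By the most-read junction alone it was 0.91, and Isg20 was no longer called. Bst2, or tetherin, which holds budding virus at the cell surface, had 15 and 35 reads, or 13.1 and 26.1 RPM, a ratio of 1.996 (1.06 to 3.93) that missed 2-fold narrowly. Trim30a, a ubiquitin ligase of the tripartite motif family, had 40 and 30 reads, a ratio of 0.642 (0.386 to 1.06), with the mock library at the higher level. It has near copies beside it, and its value is uncertain for that reason.

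The oligoadenylate synthetase genes make the second messenger that switches on the antiviral nuclease RNase L, except for Oasl1, which has no such activity. Oas1a had 8 mock and 2 stimulated reads, Oas2 1 and 1, Oas3 1 and 5, Oasl1 5 and 1, and Oasl2 7 and 10. All 5 were under the minimum, and their reads together were 22 and 19. The Ifit genes encode proteins that bind viral RNA. Ifit1 had 1 and 1 reads, Ifit2 11 and 3, and Ifit3 1 and 1. Together these 3 had 13 and 5 reads, a summed ratio of 0.329 (0.0918 to 0.983), and the family was thinly read in both libraries. Isg15, the ubiquitin-like modifier, had 0 and 1 reads, Usp18, the enzyme that removes it and also brakes the type I receptor, had 6 and 1, and Rtp4 had 0 and 2. Isg15, Ifit1, Ifit3 and Rtp4 had a single named junction each, placed through the neighbouring genes. Oas1a and Ifit3 have near-identical copies and are uncertain.

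Mx1, Mx2, Rsad2 and Ifi44 had no named junction. Intact copies of Mx1 and Mx2 encode dynamin-like GTPases that trap virus particles, and Rsad2 encodes viperin, which makes a chain-ending nucleotide. Whether the Mx genes are intact in the strain used was not examined here. No junction of any name was listed on their strand between the nearest named junctions on either side. A count of 0 allows a level of up to 2.61 RPM in the mock and 2.24 RPM in the stimulated library, on the same 3-read limit. The 12 genes under the minimum had 42 mock and 37 stimulated reads in all, a summed ratio of 0.754 (0.471 to 1.20). The counting intervals of Ifit2 (0.0418 to 0.883) and Dhx58 (1.07 to 337) excluded 1, and with a minimum of 10 reads Ifit2 was called lower and Dhx58 higher. Intervals widened by the spread between junctions of a gene included 1 for both, at 0.0134 to 1.59 and 0.498 to 9926. The 12 together had fewer reads in each library than Gbp3 alone, which has 16 annotated introns where Isg15, Ifit1 and Ifit3 have 1 each.

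Of the remaining 4 genes, which regulate transcription or signalling, Parp14 and Parp9 were neither higher nor lower. Parp14, a mono-ADP-ribosyltransferase and the best read type I led gene, had 195 and 225 reads, or 170 and 168 RPM, a ratio of 0.987 (0.811 to 1.20), with 8 junctions above and 8 below the mock level. Its partner Parp9 had 61 and 79 reads, a ratio of 1.11 (0.783 to 1.57). The junctions of Parp9 with at least 10 reads ranged from 0.214 to 7.70 times the mock level, so its sum joins unlike parts: its most-read junction had 26 and 13 reads, which is -1.23 as a log2 ratio, and all others together gave 0.69. Ifi35, which stabilises signalling partners such as Nmi, had 34 and 80 reads, or 29.6 and 59.6 RPM, and was 2.01-fold higher (1.33 to 3.10), with all 6 junctions on the higher side. Its call also lies near the threshold, and was lost by the most-read junction only (log2 ratio 0.77) and with junctions seen in both libraries only (0.82). Xaf1, a promoter of cell death, had 36 and 21 reads, or 31.4 and 15.7 RPM, and was 2.00-fold lower (1.14 to 3.61). Its call lies at the threshold. It was lost with an interval widened by the spread between junctions of a gene and with the other scalings (log2 ratio -0.78), and by its most-read junction, with 8 and 10 reads, Xaf1 had a log2 ratio of 0.10.

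**Figure D3:**
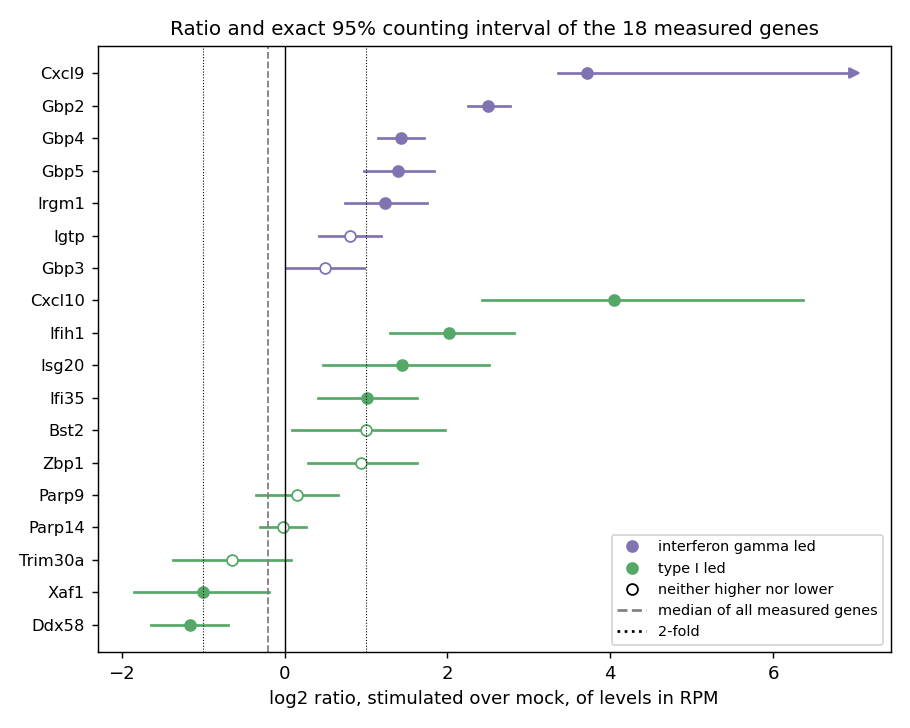
The log2 ratio of stimulated over mock level for the 18 measured genes, with bars for the exact 95% counting interval and an arrow where the interval has no upper limit; violet marks interferon gamma led and green type I led genes, filled where called higher or lower. Dotted lines stand at 2-fold and the dashed line at the median of all measured genes, -0.20; Cxcl9, Cxcl10 and Gbp2 lie farthest to the right and Ddx58 farthest to the left.

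Set side by side, the 7 interferon gamma led genes had a median log2 ratio of 1.40 (0.49 to 3.71) and summed reads of 543 and 2043, while the 11 measured type I led genes had a median of 0.94 (-1.16 to 4.05). All 27 type I led genes together had 597 and 816 reads. These sums depend on single genes: without Gbp2 the interferon gamma led sum was 399 and 1089 reads, a ratio of 2.33 (2.08 to 2.62), and without Cxcl10 the type I led sum was 594 and 758 reads, a ratio of 1.09 (0.979 to 1.22). With Cxcl10 counted among the interferon gamma led genes the medians were 1.41 and 0.54. With a minimum of 10 reads, which admits 4 more type I led genes, the type I median was 0.29. The 2 groups were not tested against each other, because genes are not replicates and each library stands alone. On the plot of all measured genes, 7 of 7 interferon gamma led genes and 7 of 11 type I led genes lie above a log2 ratio of 0, as do 3203 of all 7389.

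**Figure D4:**
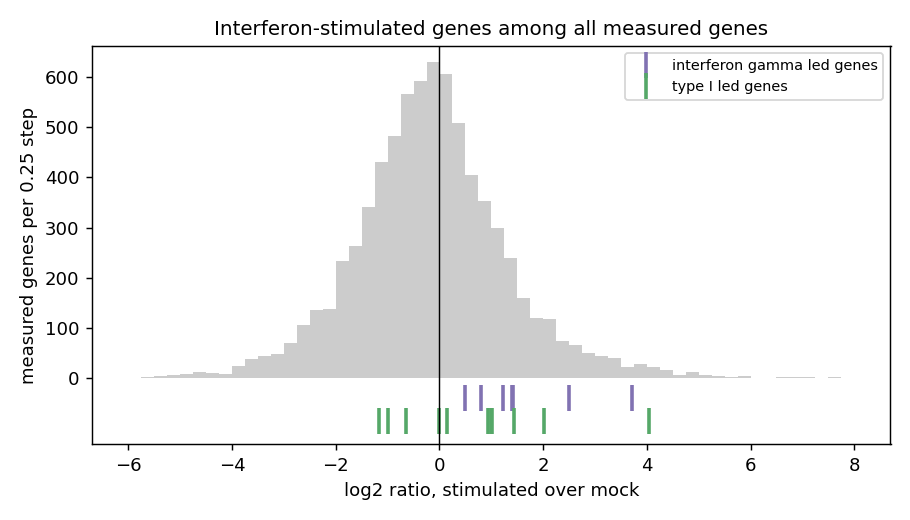
Histogram of log2 ratios, stimulated over mock, of the 7389 measured genes (grey, in steps of 0.25), with ticks below it for the 7 interferon gamma led (violet) and 11 type I led (green) measured genes. The violet ticks run from 0.49 to 3.71 and the green ticks from -1.16 to 4.05.

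The genes upstream of these targets differed widely in reads. Ifng, which encodes interferon gamma, had 3 mock and 34 stimulated reads and was 9.69-fold higher (3.05 to 49.3). The other 8 interferon genes listed, Ifnb1, Ifna1, Ifna2, Ifna4, Ifnk, Ifne, Ifnl2 and Ifnl3, had no named junction. Genes without introns, as most type I interferon genes are, cannot be shown by junction reads. This limit does not cover those of the 8 that have introns. The receptor chains were lower in the stimulated library in all 4 cases, beside 25.0% lower over all measured genes. Ifngr1 had 1149 and 241 reads and was 5.57-fold lower (4.85 to 6.43), and Ifngr2 had 140 and 24 reads and was 6.82-fold lower (4.40 to 11). Ifnar1 had 334 and 135 reads and was 2.89-fold lower, and Ifnar2 had 88 and 49 reads and was 2.10-fold lower. With either other scaling Ifnar2 was at a log2 ratio of -0.84 and no longer called. The receptor chains thus lay on the lower side, while the interferon gamma led genes above lay on the higher side or under 2-fold.

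The kinases and signal carriers were divided. Jak1, which serves both receptors, had 3421 and 1290 reads and was 3.10-fold lower, and Tyk2, which serves the type I receptor, had 232 and 133 reads and was 2.04-fold lower, a call lost with either other scaling (log2 ratio -0.80). Jak2, the second kinase of the interferon gamma receptor, had 691 and 1835 reads and was 2.27-fold higher (2.08 to 2.48). Stat2 had 114 and 83 reads, a ratio of 0.623 (0.464 to 0.834), and Irf9 131 and 135, a ratio of 0.881 (0.688 to 1.13). Neither of these carriers of the type I signal reached 2-fold in either direction.

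Of 8 measured interferon regulatory factors, 3 were higher, beside 17.3% over all measured genes. Irf1, the factor that interferon gamma raises, had 280 and 877 reads and was 2.68-fold higher (2.34 to 3.08). Irf4, which directs effector T cells, had 93 and 2443 reads, and Irf8, better known from myeloid and B cells, had 11 and 542. They were 22.5-fold and 42.1-fold higher. Irf7, which amplifies the type I response, had 44 and 19 reads and was 2.71-fold lower (1.55 to 4.91). Irf2 had 317 and 191 reads, a ratio of 0.515, Irf3 84 and 145, a ratio of 1.48, and Irf5 21 and 19, a ratio of 0.774. These last 3 were neither higher nor lower.

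**Figure D5:**
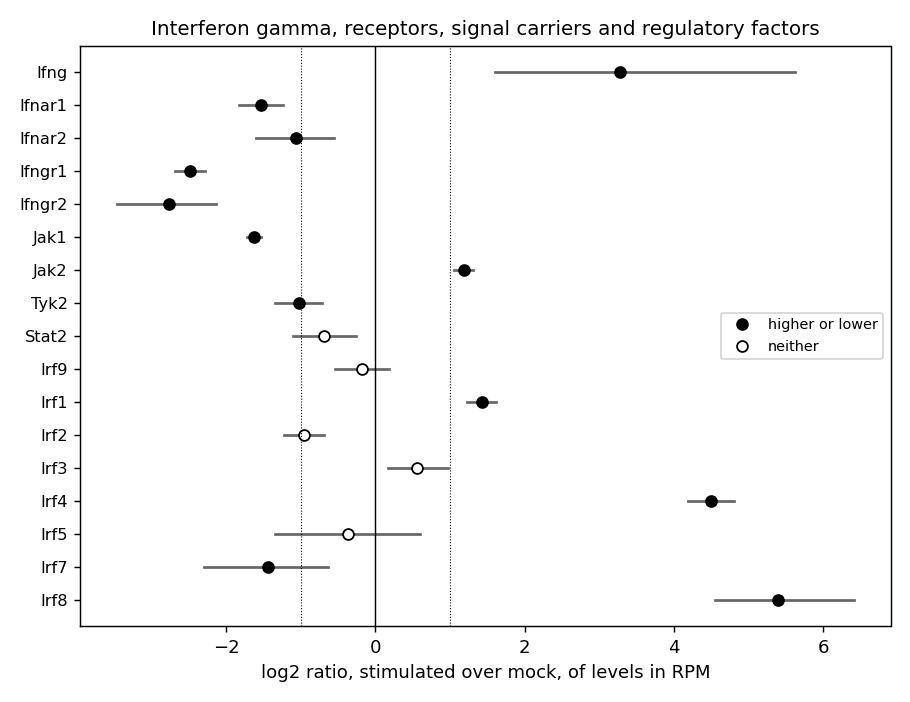
The log2 ratio of stimulated over mock level, with bars for the exact 95% counting interval, for Ifng, the receptor chains, and the kinases, signal carriers and regulatory factors described above; filled circles were called higher or lower and dotted lines stand at 2-fold. The 4 receptor chains lie left of the lower line, and Ifng, Jak2, Irf1, Irf4 and Irf8 lie right of the upper one.

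Further targets were counted from lists of the same 2 kinds. Of 18 measured genes among the other guanylate-binding proteins, immunity-related GTPases and interferon gamma targets, 8 were higher and 0 lower, and the median was 0.98 on the log2 scale. Over all measured genes 17.3% were higher and 25.0% lower. Cd274, which encodes the inhibitory ligand PD-L1, had 26 and 379 reads and the highest ratio of the list, 12.5-fold (8.38 to 19.3). Nlrc5, the activator of MHC class I genes, had the most reads, 519 and 1069, a ratio of 1.76 (1.58 to 1.96) that reached 2-fold with either other scaling, and Tapbp, which loads peptides on MHC class I, had the lowest ratio, 0.992, from 443 and 514 reads. The other Gbp genes of the list, named after their values were seen, were Gbp6 (6.89-fold higher), Gbp7 (5.03-fold higher), Gbp10 (7.61-fold higher), Gbp11 (2.65-fold higher), Gbp8 (ratio 1.35) and Gbp9 (ratio 1.21). Gbp6 had 37 and 298 reads and Gbp7 48 and 282, so the higher level was not limited to the 4 Gbp genes above.

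Among 33 measured genes of the other type I targets, 3 were higher and 13 lower, and the median was -0.45 on the log2 scale. Ly6a, which encodes the surface protein Sca-1, had 114 and 785 reads and was 5.89-fold higher (4.83 to 7.23), the highest ratio of the list. Sp100, a nuclear body protein, had 1287 and 289 reads and was 5.21-fold lower (4.58 to 5.94), the lowest ratio. Samhd1, which breaks down deoxynucleotides, had the most reads, 1648 and 963, and was 2.00-fold lower (1.85 to 2.17), a call at the threshold that both other scalings end, leaving 10 lower genes in the list. The list as a whole had 9027 mock and 5439 stimulated reads. The shares of 3 and 13 of 33 stand beside 17.3% and 25.0% over all measured genes.

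Genes that start or brake interferon signalling were called in both directions. In the path from nucleic acid sensors to interferon genes, 1 of 7 measured genes was higher and 3 were lower, and among 9 measured brakes 1 was higher and 2 were lower, beside 17.3% and 25.0% over all measured genes. Ikbke, a kinase that activates Irf3 and Irf7, had 1327 and 139 reads and was 11.2-fold lower (9.37 to 13.4), and the adaptor Traf3 had 65 and 157 reads and was 2.07-fold higher (1.54 to 2.80). Among the brakes, the phosphatase Ptpn6 had 224 and 807 reads and was 3.08-fold higher (2.65 to 3.59). Pias3, an inhibitor of Stat factors, had 33 and 8 reads and was 4.82-fold lower (2.18 to 12.1). Pias1 of the same family, named after its values were seen, had 354 and 143 reads and was 2.89-fold lower (2.38 to 3.54). Socs1 and Socs3, the inducible inhibitors of Jak kinases, had 0 mock reads and 4 and 3 stimulated reads, under the minimum.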

How the data were processed

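RNA sequencing junction lists of 1 mock and 1 stimulated library of splenic CD4+ T cells were used. The score column holds counts of reads over each junction, as deposited by the authors, with no normalization. TopHat, Cufflinks and mm9 are named in the submitters' processing notes, with no version or filter. Introns inside repeats or near-identical copies can lose or gain reads in alignment.

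No mm9 annotation was used. Of 124183 junctions, 96318 (77.6%) were named from GENCODE M21 (GRCm38) where at least 2 introns of a gene agreed in length and exact spacing; 1938 more, in genes without such a name, by length and spacing to neighbouring genes. When the step that uses neighbouring genes was rerun at positions shifted by 1000 bp steps (21 offsets), it named 0 junctions. The naming by spacing within a gene was not checked in this way. The widened interval used the spread between junctions of a gene, 2.02 times the counting variance.

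The 34 genes, the lists and the rules were chosen with earlier results of these data known. All 34 are named; of other lists, the highest, lowest and most-read measured gene, and all interferons, receptors, carriers and regulatory factors. A few results that this rule names are not reported here. Python packages were numpy 2.4.6, scipy 1.17.1, pandas 2.3.3 and matplotlib 3.10.9. The calling method was tested on simulated data. Alternatives were other scalings, read minimums, folds, intervals, junction choices and naming.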

Additional observations from a re-analysis of the deposited data

How the results depend on the processing

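No paired analysis was possible because each group is 1 library, and for the same reason no replicate could be left out. Of the 18 measured among the 34 genes, 9 were higher and 2 lower, beside 17.3% and 25.0% over all measured genes. The 2 lower calls became 0 with scaling by the median of ratios, 0 with the trimmed mean of M values and 0 at a fold of 4, and 1 with the widened interval and 1 with junctions seen in both libraries only. The 9 higher calls became 4 at a fold of 4 (Cxcl9, Cxcl10, Gbp2 and Ifih1) and lay between 7 and 12 under every other alternative run. The cause was not tested. Calls over all measured genes moved too. At a fold of 4, 6.93% were higher and 8.73% lower, and with the widened interval 15.7% and 22.1%. Under the other alternatives 15.6% to 21.7% were higher and 19.6% to 25.1% lower. The 2 scalings, with zero points at log2 ratios of -0.23, gave 12 higher genes by adding Bst2, Igtp and Zbp1, and over all genes 1604 higher and 1448 lower calls by the trimmed mean in place of 1281 and 1848; the log2 ratio of Parp14 went from -0.02 to 0.21. By the most-read junction only, Xaf1 had a log2 ratio of 0.10 where it was -1.0, Trim30a -1.45, Zbp1 0.14 and Ddx58 -2.23. The interferon gamma led median ranged from 1.25 to 1.62 and the type I led median from 0.29 to 1.16. A minimum of 10 reads added Dhx58 to the higher and Ifit2 to the lower genes. Depth limits the 12 genes under the minimum, and genes without introns have no value.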

Other observations

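Irgm1 was the only one of the 34 genes with splice sites shared by several named junctions and read at least 20 times in each library. Its 3 named junctions link a first, a middle and a last exon. Of the reads that join its last exon, the junction directly from the first exon held 50% in the mock (21 of 42) and 43.9% in the stimulated library (54 of 123). Of the reads that leave its first exon the same junction held 80.8% (21 of 26) and 90.0% (54 of 60). The junction from the first exon into the middle one had 5 mock and 6 stimulated reads. That from the middle exon into the last had 21 and 69. The counts on either side of the middle exon thus differ, and the shares do not measure how often it is skipped. Within the span of Gbp4, 10 further junctions that could not be named had 2 mock and 24 stimulated reads, beside 143 and 449 at the named ones. Within that of Irgm1 there were 4, with 8 and 21 reads, and within that of Gbp2 4, with 4 and 15.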
